A study of Mus musculus with 6 samples.

Results

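The 10 interferon-stimulated genes, Ifit1, Ifit2, Ifit3b, Isg15, Oasl2, Ifi204, Parp14, Irf9, Ddx58 and Trim25, were followed in lymphatic endothelial cells of the mouse meninges. They were chosen by name from the 4233 genes listed for the study, with earlier results of these data known. That all 10 are listed follows from this choice. The 2 groups were non-transgenic mice (WT) and their littermates hemizygous for 5xFAD, all male, aged 6 months and on C57BL/6J. The 5xFAD strain carries transgenes driven by the Thy1 promoter, which is active in neurons, and deposits amyloid in the brain. Each group had 3 libraries, and each library came from cells of 10 mice, pooled and sorted as CD45-negative, CD31-positive and podoplanin-positive. Values are normalised counts, which are reads per gene divided by 1 factor per library.

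Interferons are signalling proteins that cells release when they sense foreign or misplaced nucleic acid. Type I interferons act through a receptor and the kinases Jak1 and Tyk2 to assemble a transcription factor complex that contains Irf9 and binds a DNA motif called the interferon-stimulated response element (ISRE) near the start of its target genes. The targets include sensors of nucleic acid, proteins that bind RNA and block its translation, and enzymes that attach small modifiers to other proteins. Because they answer the same complex, these genes often move together, so the question here was whether the members had the same direction in 5xFAD and whether they followed each other from library to library.

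The 10 members did not share a direction. Their log2 fold changes (5xFAD minus WT, on log2 of the value plus 1) were positive for 6 and negative for 4, with a median of 0.78 against -0.02 over all 4152 tested genes. The median rested on single libraries, at 0.28 without 5xFAD 3 and 0.42 without WT 1. One gene, Ifit3b, rose past the test (limma adjusted p = 0.0305), and 0 members were called lower by limma, edgeR, DESeq2 or voom, with 0 lower at an unadjusted limma p under 0.05. Of all tested genes, 6.36% were called, 1.88% as higher and 4.48% as lower, and 16.3% had an unadjusted limma p under 0.05, which Ifit3b and Ifit2 had among the members. The members were picked with earlier results of these data known, so their counts are a description.

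Some of the members share a promoter motif, which the choice of members did not use. RefSeq windows (GRCm38.p6) from 250 bases before to 50 bases after the start site were matched for 8 of the 10 members, with 10 windows in all; Ifi204 and Parp14 had none. The core letters of the ISRE, GAAA followed by any 2 bases and GAAA again, searched on both strands, were found in 4 of the 8, namely Ifit1, Ifit3b, Isg15 and Ddx58, and in 3.44% of all 32851 promoter windows of this length. The interferon-gamma motif GAS, TTCNNNGAA, which reads the same on both strands, was found in 1 member, Ifit2, and in 8.3% of all windows. The 4 windows with an ISRE core are printed because they belong to genes on both sides of the comparison, Ifit3b and Ifit1 with positive and Isg15 and Ddx58 with negative fold changes. Capitals mark the ISRE core, which stands as TTTC, any 2 bases and TTTC where it lies on the other strand. They lie at chr19:34640639-34640938 (plus strand) for Ifit1, chr19:34607707-34608006 (plus strand) for Ifit3b, chr4:156200769-156201068 (minus strand) for Isg15 and chr4:40239776-40240075 (minus strand) for Ddx58.
Ifit1: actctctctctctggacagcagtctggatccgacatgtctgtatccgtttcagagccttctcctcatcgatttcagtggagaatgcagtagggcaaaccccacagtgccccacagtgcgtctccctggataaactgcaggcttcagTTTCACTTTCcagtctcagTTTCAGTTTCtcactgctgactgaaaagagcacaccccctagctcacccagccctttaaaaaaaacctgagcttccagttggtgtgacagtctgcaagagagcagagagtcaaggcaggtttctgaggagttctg
Ifit3b: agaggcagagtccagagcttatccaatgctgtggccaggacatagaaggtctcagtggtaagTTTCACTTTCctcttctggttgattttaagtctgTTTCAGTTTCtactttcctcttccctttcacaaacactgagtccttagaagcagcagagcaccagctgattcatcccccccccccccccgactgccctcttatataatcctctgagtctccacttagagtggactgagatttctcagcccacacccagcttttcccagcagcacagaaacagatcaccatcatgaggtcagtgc
Isg15: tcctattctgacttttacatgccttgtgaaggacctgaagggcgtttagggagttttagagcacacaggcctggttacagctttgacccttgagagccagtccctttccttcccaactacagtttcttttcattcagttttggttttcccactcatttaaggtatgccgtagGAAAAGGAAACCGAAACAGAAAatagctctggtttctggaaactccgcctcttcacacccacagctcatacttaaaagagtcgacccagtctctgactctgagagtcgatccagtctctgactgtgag
Ddx58: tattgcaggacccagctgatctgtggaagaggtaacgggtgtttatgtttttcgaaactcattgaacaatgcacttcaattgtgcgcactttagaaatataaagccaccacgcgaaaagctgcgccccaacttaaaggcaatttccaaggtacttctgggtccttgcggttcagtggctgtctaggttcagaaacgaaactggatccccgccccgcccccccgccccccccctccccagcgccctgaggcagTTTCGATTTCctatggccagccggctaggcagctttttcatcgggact
Ifit1 and Ifit3b each held 2 cores with the same letters, tttcactttc and then tttcagtttc, from base 147 and base 166 of the Ifit1 window and from base 63 and base 97 of the Ifit3b window. Isg15 held 3 cores that overlap each other, from bases 173, 179 and 185. The Ddx58 core began at base 253, past the start site. A match is a description of the letters in these windows, and binding was not measured.

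The Ifit proteins bind RNA, and their genes lie side by side on chromosome 19 (GRCm38, GENCODE M21): Ifit2 from 34550694 to 34576419, Ifit3b from 34607970 to 34613401 and Ifit1 from 34640871 to 34650009, all on the plus strand. Ifit3b, a mouse copy of Ifit3, was at 5.75, 55.8 and 5.31 normalised counts in WT 1, WT 2 and WT 3. In 5xFAD 1, 5xFAD 2 and 5xFAD 3 it was at 50.6, 537 and 91.5. WT 2 lay above 5xFAD 1, so the groups overlapped, and 8 of the 9 pairs of a WT with a 5xFAD library were higher in 5xFAD. The means were 22.3 ± 29.0 and 226 ± 270 (SD, n = 3 each), a log2 fold change of 3.35 (SE 1.07, 95% interval 1.25 to 5.45; limma adjusted p = 0.0305). The exact permutation test on its 6 values alone gave p = 0.2 (two-sided), where 3 against 3 cannot go under 0.1.

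The Ifit3b difference rested on few reads in WT. The recovered reads were 7, 60 and 6 in WT and 61, 442 and 69 in 5xFAD, and the exact Poisson 95% interval of the normalised count ran from 2.31 to 11.9 in WT 1, from 42.6 to 71.8 in WT 2 and from 488 to 590 in 5xFAD 2. These intervals cover counting error only, and they treat the recovered reads as counted rather than estimated. The call was kept without WT 2 (log2 fold change 4.39, limma adjusted p = 0.00829) and without 5xFAD 1 (4.06, 0.0192). It was lost without WT 1 (2.86, limma adjusted p = 0.19), WT 3 (2.81, 0.201), 5xFAD 2 (2.36, 0.307) or 5xFAD 3 (3.63, 0.0641). The value is uncertain for a further reason: of the 1958 distinct stretches of 31 bases in its transcripts, 55.3% also occur in transcripts of other genes, 54.1% in those of Ifit3. How reads were divided between Ifit3 and Ifit3b was not examined here, and Ifit3 itself was not analysed here.

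Ifit2 was at 163, 1112 and 86.7 in the 3 WT libraries and at 3579, 688 and 1022 in the 3 5xFAD libraries. WT 2 was again the high WT library and lay above 2 of the 3 5xFAD libraries. The log2 fold change was 2.43 (SE 0.99, 95% interval 0.48 to 4.38), which did not pass (limma adjusted p = 0.138). It fell to 1.67 without WT 3 (limma adjusted p = 0.544) and to 1.74 without 5xFAD 1 (limma adjusted p = 0.514). Without WT 2 it was 3.51 and passed (limma adjusted p = 0.049). None of its 31-base stretches occurred in another gene.

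Ifit1, which binds RNA caps that lack the host's methyl mark and blocks translation, was at 178, 482 and 208 in WT and at 105, 608 and 1356 in 5xFAD. The 5xFAD group held both the lowest and the highest of the 6 values. The log2 fold change was 0.76 (95% interval -1.26 to 2.78; limma adjusted p = 0.812), and single libraries moved it from -0.048 (without 5xFAD 3) to 1.79 (without 5xFAD 1). Ifit1 shares 10.8% of its 31-base stretches with other genes, most of them with Ifit1bl2.

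**Figure D1:**
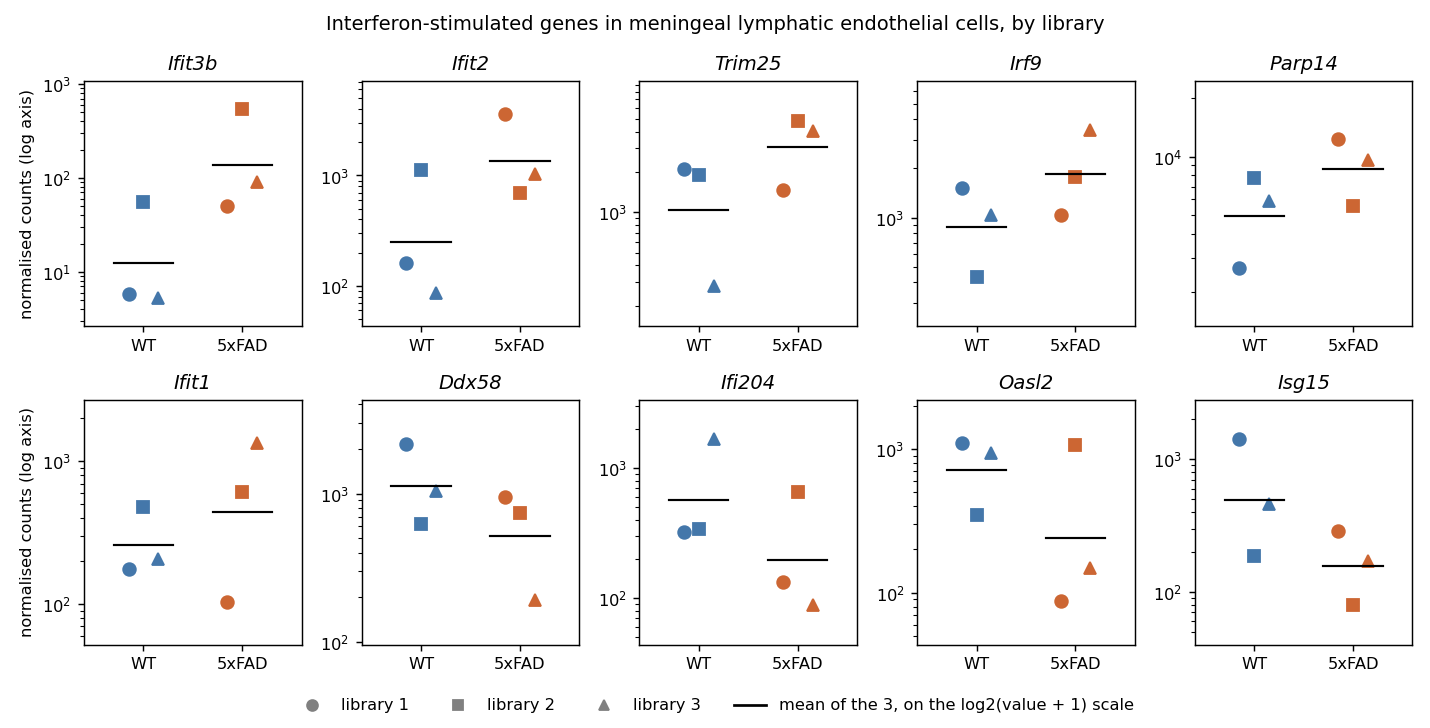
Normalised counts (log axis) of the 10 genes in each of the 6 libraries, blue for WT and orange for 5xFAD, with the library number as the symbol and the mean on the log2(value + 1) scale as a line. The 2 groups overlap in 10 of 10 panels, and the widest gap between the lines is that of Ifit3b.

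The modifier and effector genes Isg15 and Oasl2 had negative fold changes. Isg15, a ubiquitin-like protein that is attached to other proteins (chromosome 4, 156199424 to 156200818), was at 1411, 188 and 459 normalised counts in WT and at 286, 80.2 and 171 in 5xFAD. WT 2 lay below 5xFAD 1, and the other 8 library pairs were lower in 5xFAD. The log2 fold change was -1.64 (SE 1.04, 95% interval -3.68 to 0.39; limma adjusted p = 0.463; exact permutation p = 0.2), and -0.89 without WT 1. Isg15 shares 13.1% of its 31-base stretches with other genes. Oasl2, a protein of the oligoadenylate synthetase-like family (chromosome 5, 114896936 to 114912234), was at 1109, 351 and 947 in WT and at 87.1, 1065 and 149 in 5xFAD. In 5xFAD 2 it lay between WT 3 and WT 1, and in the other 5xFAD libraries it was below the lowest WT library. Its log2 fold change was -1.57 (95% interval -3.57 to 0.43; limma adjusted p = 0.479), and it ran from -0.85 without 5xFAD 1 to -2.64 without 5xFAD 2.

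The sensor genes Ddx58 and Ifi204 also had negative fold changes, and neither passed. Ddx58 encodes RIG-I, a helicase that detects foreign RNA in the cytosol (chromosome 4, 40203773 to 40239828). It was at 2149, 622 and 1044 in WT and at 950, 742 and 192 in 5xFAD, so that 5xFAD 3 stood low and 5xFAD 1 and 5xFAD 2 lay within the WT range. The log2 fold change was -1.12 (95% interval -3.02 to 0.78; limma adjusted p = 0.65), -0.41 without 5xFAD 3 and -0.65 without WT 1. Ifi204, of a family of DNA-binding sensors (chromosome 1, 173747293 to 173766943), was at 323, 338 and 1688 in WT and at 132, 659 and 87.6 in 5xFAD. WT 3 stood high, and 5xFAD 2 lay above WT 1 and WT 2. The log2 fold change was -1.53 (95% interval -3.55 to 0.50; limma adjusted p = 0.504). It was -0.74 without WT 3, -0.94 without 5xFAD 3 and -2.39 without 5xFAD 2. Ifi204 shares 34.6% of its 31-base stretches with other genes, most of them with Ifi211 of the same family, which makes its level uncertain.

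Trim25, Irf9 and Parp14, which act on signalling and on transcription, had positive fold changes that did not pass. Trim25, a ubiquitin ligase that activates RIG-I (chromosome 11, 88999376 to 89020293), was at 2120, 1885 and 282 in WT and at 1458, 4791 and 4077 in 5xFAD. WT 3 was the low value and 5xFAD 1 lay within the WT range. Its log2 fold change was 1.55 (SE 0.86, 95% interval -0.13 to 3.23; limma adjusted p = 0.364), and 0.61 without WT 3. Irf9, the DNA-binding part of the complex that drives this gene set (chromosome 14, 55603571 to 55610030), was at 1518, 431 and 1042 in WT and at 1038, 1762 and 3443 in 5xFAD. The 5xFAD 1 value was next to that of WT 3, and the other 5xFAD libraries were above every WT library. Its log2 fold change was 1.07 (95% interval -0.71 to 2.85; limma adjusted p = 0.637), 0.55 without WT 2 and 0.62 without 5xFAD 3. Parp14, an enzyme that attaches ADP-ribose to proteins (chromosome 16, 35832874 to 35871544), was at 2661, 7721 and 5906 in WT and at 12284, 5518 and 9596 in 5xFAD. WT 1 was low, and 5xFAD 2 lay below WT 2 and WT 3. Its log2 fold change was 0.81 (95% interval -0.40 to 2.01; limma adjusted p = 0.59), and 0.36 without WT 1. The gene span of Irf9, introns included, overlaps that of Rnf31 by 123 bases, and that of Parp14 overlaps that of Gm49730 by 1773 bases. Each overlap is on the same strand. In their transcripts Irf9 shares 1.69% of its 31-base stretches with Rnf31, and Parp14 shares 0.871% with Gm49730. A read that lies wholly within shared sequence cannot be assigned to 1 gene, and how such reads were divided was not examined.

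**Figure D2:**
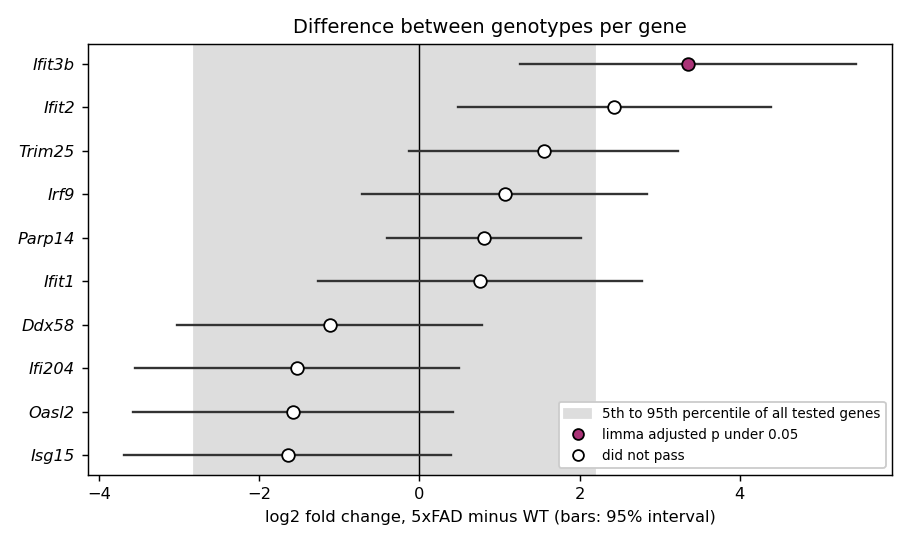
Log2 fold change (5xFAD minus WT) of each gene with its limma 95% interval; the grey band runs from the 5th to the 95th percentile of all 4152 tested genes. Ifit3b (3.35) and Ifit2 (2.43) lie to the right of the band, which ends at 2.19, and the 4 genes on the left lie between -1.64 and -1.12, inside it.

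The median spread between replicates was larger over the members than over all tested genes. The SD within groups on the log2 scale had a median of 1.38 over the 10 members, from 0.70 for Parp14 to 1.78 for Ifit3b, and of 1.08 over all tested genes, of which 22.1% had an SD above the members' median. Within WT, the highest library was between 2.71 times (Ifit1) and 12.8 times (Ifit2) the lowest, and within 5xFAD between 2.23 times (Parp14) and 13.0 times (Ifit1). The groups overlapped for 10 of 10 members. Of all tested genes, 18.1% had groups that did not overlap, so overlap was the usual case there too. For Ifit3b the overlap rests on WT 2 and 5xFAD 1, whose order is within counting error. Exact permutation p values of the single members ran from 0.2 to 0.6. In the limma fit the SE depended on the mean level alone (prior degrees of freedom infinite), so a wide spread in a gene's own replicates did not widen its interval. This applies to Ifit3b, the called member, whose own SD of 1.78 was the widest and is not reflected in its SE of 1.07.

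Levels were compared between genes per kilobase of exon, with all annotated exons of a gene merged. The length of the transcripts present was not measured and the RNA was amplified, so this scale is approximate. On that scale Parp14 had the highest mean over the 6 libraries (782 normalised counts per kilobase) and Ifit3b the lowest (62.2), and both kept those places with each of the 6 libraries left out in turn. Isg15 (572) came after Parp14 and before Trim25 (423), but without WT 1 it was at 313, under Trim25 at 434. In WT the mean level of Isg15 (907 per kilobase) was above that of Parp14 (583), an order that turned without WT 1 (428 and 732). In 5xFAD Parp14 (981) stood highest, and Isg15 (237) was below Trim25 (598), Ifit2 (449) and Irf9 (386) with all libraries and with each of the 3 left out in turn. Ifit1 (260) was close to Isg15 there, and without 5xFAD 3 it was lower, at 134 against 242 per kilobase. The levels without single libraries were computed after the data were seen.

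Library by library, the members did not rise and fall as a block. In WT 1, WT 2 and WT 3 the number of members above their own median over the 6 libraries was 5, 5 and 4, and in 5xFAD 1, 5xFAD 2 and 5xFAD 3 it was 4, 6 and 6. The shares over all tested genes were between 48.9% and 51.6%. No library was the high or the low one for most members: WT 1 held the highest of the 6 values for 3 members, WT 2 for 0, WT 3 for 1 and each 5xFAD library for 2, and the lowest values fell in all 6 libraries. In the 9 pairs of a WT with a 5xFAD library, between 3 and 7 members were higher in 5xFAD, with the fewest for WT 1 against 5xFAD 1 and the most for WT 1 and for WT 2 against 5xFAD 2. The summed counts of the members were 11637, 13185 and 11668 in WT and 19968, 16450 and 20185 in 5xFAD, without overlap. Such a sum weighs members by their level, with Parp14 (mean 7281) first and Trim25 (2436) next, so it does not describe agreement between members.

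Some pairs of members lay on the same side of their medians in every library. Ifit1 and Ifit3b were above their median in WT 2, 5xFAD 2 and 5xFAD 3, a pattern of 4.43% of all tested genes. Ifit2 and Parp14 were above it in WT 2, 5xFAD 1 and 5xFAD 3, and Irf9 and Trim25 in WT 1, 5xFAD 2 and 5xFAD 3. Isg15 and Ddx58 were above it in WT 1, WT 3 and 5xFAD 1, the reverse of Ifit1 and Ifit3b in every library. Near ties set some of these sides. Ifit3b lay 0.07 above its median in WT 2 and 0.07 below it in 5xFAD 1. Ifi204 lay 0.03 below its median in WT 1 and 0.03 above it in WT 2. Both orders are within counting error, so the patterns of these genes and the pair counts that include them are not resolved. Of the 45 pairs of members, 4 lay on the same side of their medians in 6 of 6 libraries (8.89%) and 6 lay on opposite sides in all of them (13.3%), against 5.39% and 5.36% of all gene pairs. Irf9 lay on the same side of its median as Ifit1 and as Ifit3b in 4 of 6 libraries, and as Ifit2 in 2 of 6. Within 5xFAD, Irf9 and Ifit1 had the same order, lowest in 5xFAD 1 and highest in 5xFAD 3. In WT they differed: WT 2 held the lowest Irf9 value (431) but the highest WT values of Ifit1, Ifit2, Ifit3b and Parp14.

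**Figure D3:**
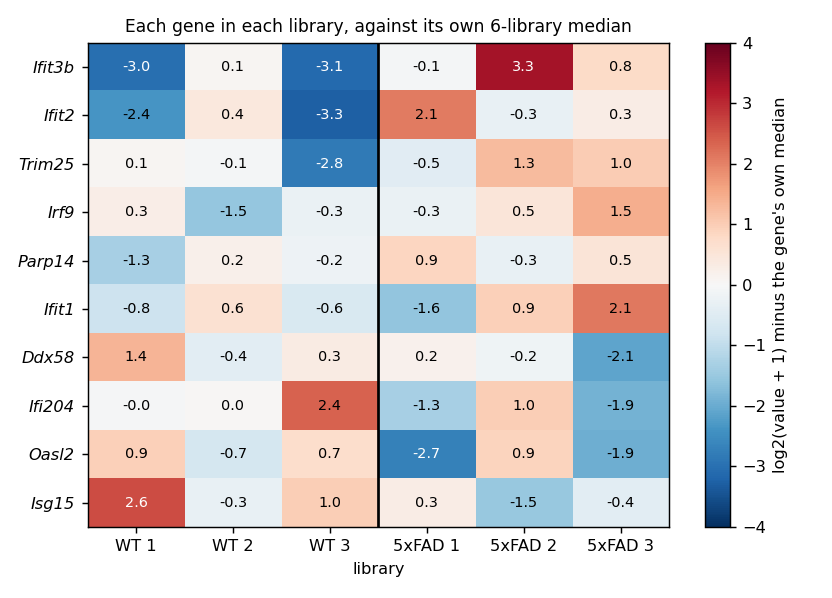
Each cell gives log2(value + 1) of a gene (row) in a library (column) minus the gene's own median over the 6 libraries, red for above and blue for below, with a line between the genotypes. No column is of 1 colour; WT 1 ranges from -3.0 for Ifit3b to 2.6 for Isg15, and 5xFAD 3 from -2.1 for Ddx58 to 2.1 for Ifit1.

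The rest of the interferon pathway was followed through lists of receptors and kinases, sensors, interferon regulatory factors, negative regulators, the ISG15 conjugation enzymes, other interferon-stimulated genes and the PARP and TRIM families. Of 269 symbols that are not members, 60 were listed and 59 tested. One, Zbp1, was called higher and 0 were called lower by limma (1.69%, against 6.36% of all tested genes), 8 had an unadjusted limma p under 0.05, and the median log2 fold change was -0.03 (28 positive, 31 negative). The groups did not overlap for 10 of the 59 (16.9%, against 18.1%). Zbp1, a sensor of nucleic acid in the Z form that can start cell death, was at 102, 25.1 and 112 in WT and at 4853, 2605 and 840 in 5xFAD, without overlap. Its log2 fold change was 5.03 (SE 1.02; limma adjusted p = 4.52e-05), 4.35 without WT 2 and 5.72 without 5xFAD 3. In the other interferon-stimulated genes it was the 1 call of 35 tested (19 positive, median 0.07), and in the sensors the 1 call of 14 tested, 3 of them members (5 positive, median -0.35).

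Upstream of the members, 5 of 16 genes for receptors and JAK-STAT factors were tested, Irf9 among them, and by limma 0 passed and 1 had an unadjusted p under 0.05; edgeR, DESeq2 and voom also called 0. Jak1, the receptor kinase, was at 1430, 8833 and 5935 in WT and at 4249, 3749 and 3560 in 5xFAD (log2 fold change -0.13; limma adjusted p = 0.961), within the WT range. Ifngr1, a chain of the interferon-gamma receptor, was at 1802, 493 and 466 in WT and at 7815, 2563 and 2221 in 5xFAD. Those groups did not overlap, but the log2 fold change of 2.25 did not pass (limma adjusted p = 0.109). Ifnar1, Ifnar2, Tyk2, Irf3, Irf7, Usp18, Ifih1, Mavs and the interferon genes were not analysed here. Of 12 symbols for regulatory factors, Irf9 and Irf2bp2, a corepressor partner of Irf2 (log2 fold change -0.50; limma adjusted p = 0.784), were tested.

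Isg15 is attached to proteins by an enzyme chain, of which Uba7 (the activating enzyme), Herc6 (a ligase) and Trim25 were tested. Uba7 was at 1399, 2396 and 1315 in WT and at 1236, 1187 and 2157 in 5xFAD (log2 fold change -0.16; limma adjusted p = 0.963). Herc6 was at 290, 281 and 93.8 in WT and at 1501, 401 and 4486 in 5xFAD, a direction opposite to that of Isg15 and without overlap. Its log2 fold change of 2.82 did not pass (limma adjusted p = 0.0701), but it passed in edgeR (3.20, edgeR adjusted p = 0.0355) and DESeq2 (3.26, DESeq2 adjusted p = 0.00405). Herc6 was named after its values were seen.

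In the remaining lists 0 genes passed by limma. The negative regulators had 4 tested genes, 2 of them at an unadjusted limma p under 0.05. Samhd1, which breaks down deoxynucleotides, averaged 7356 ± 4248 for WT and 3242 ± 750 for 5xFAD (SD, n = 3; log2 fold change -1.06; limma adjusted p = 0.474), and Ptpn11, a phosphatase, at 648 ± 344 and 3177 ± 2130 (2.28; limma adjusted p = 0.124). The PARP family had 6 tested genes, 2 of them positive (median -0.39), and Tnks2 was at -0.36 beside 0.81 for Parp14. The TRIM family had 14, 9 of them positive (median 0.11), with Trim24 at -1.56 and Trim44 at -0.05 beside 1.55 for Trim25. Unadjusted limma p values under 0.05 numbered 0 in the PARP family and 1 in the TRIM family, that of Trim35 (log2 fold change 2.63). DESeq2 called Trim35 and Ptpn11 higher and Pias2 lower, and edgeR called Trim35; these were named after their values were seen.

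**Figure D4:**
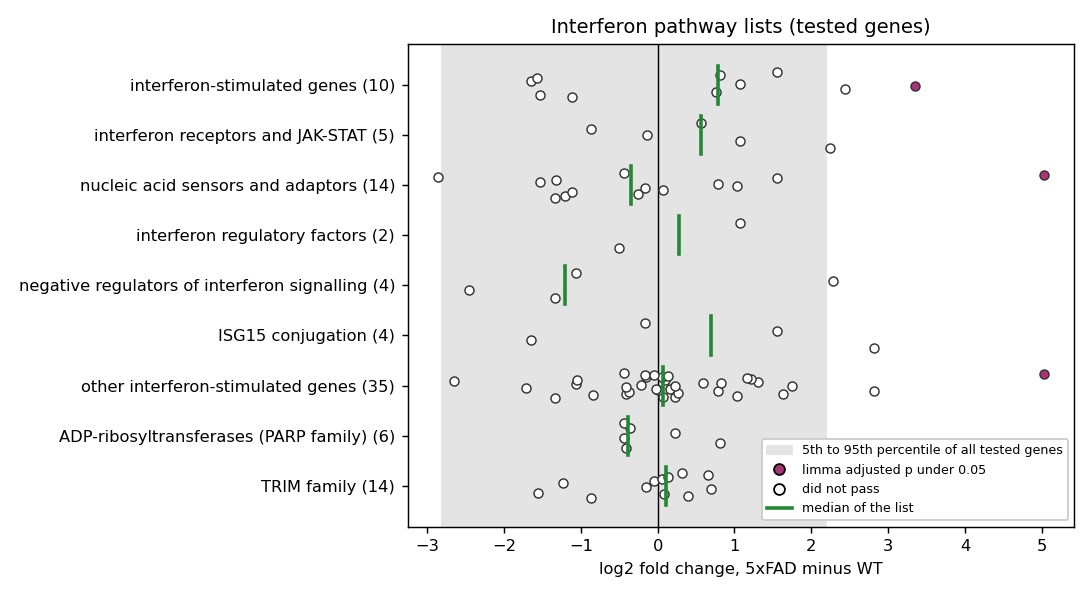
Log2 fold change (5xFAD minus WT) of every tested gene in the 10 members and in each pathway list, with the number tested in brackets, filled points for calls, green lines for list medians and a grey band for the 5th to 95th percentile of all tested genes. The filled points are Ifit3b (3.35) and Zbp1 (5.03, in 2 lists), and each list with more than 1 gene has points on both sides of 0.

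The sorted cells carried lymphatic endothelial markers, with 11 of 12 listed and 0 called by limma, edgeR, DESeq2 or voom (0 at an unadjusted limma p under 0.05). Their summed level ran from 266981 to 306251 normalised counts in WT and from 227253 to 357197 in 5xFAD; Prox1 had a log2 fold change of 0.28 and Pecam1 of -0.07. Leukocytes also express these interferon-stimulated genes. Of 18 macrophage and microglia markers 2 were listed (Mrc1, which lymphatic endothelium also expresses, and Cx3cr1), with sums from 8429 to 11862 in WT and from 8187 to 11371 in 5xFAD. Of 19 markers of other leukocytes 2 were listed, with sums from 221 to 477 and from 328 to 370. One of them, Cd8a, was called lower by limma, with 14.0, 52.1 and 81.4 in WT and 0 in the 3 5xFAD libraries. The other, Cd3d, had higher values, at 371, 169 and 395 in WT and at 328, 339 and 370 in 5xFAD. Its log2 fold change was 0.24 (limma adjusted p = 0.952). The lists of blood endothelium (8 tested), fibroblasts (6), mural cells (3) and erythroid cells (1) had 0 calls by limma, edgeR, DESeq2 or voom and 0 genes at an unadjusted limma p under 0.05. Fibroblast markers summed to between 31654 and 70011 in WT and between 37633 and 40274 in 5xFAD. For blood endothelium the sums ran from 16650 to 28260 and from 22361 to 27287, and for mural cells from 2091 to 7859 and from 955 to 4014. Genes with wide replicates are not in the table, so a marker that is not listed does not show that its cell type was absent. The part of these cell types in the results was not tested, and Ptprc was not analysed here. In pooled bulk samples fewer cells of a type and less RNA per cell cannot be told apart. Recovered reads ran from 10263689 to 11934686 in WT and from 7960827 to 13255050 in 5xFAD, and genes without a read from 25 to 42 and from 86 to 147 per library. The fewest reads of any member in a library were 6 (Ifit3b in WT 3).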

How the data were processed

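RNA sequencing was done on 6 libraries, 3 per genotype. The deposited values are a normalised signal, made by the authors by dividing gene counts by a factor of each library. The tools Salmon, DESeq2, Trimmomatic and FastQC and the build mm10 come without versions, per the submitters' processing notes. RNA was amplified linearly per the labels' protocols. Every value was a whole multiple of its column's smallest value above 0 (100% within 1e-06), which gave whole numbers, called recovered reads here. They sum over the listed genes, a part of each library. Whether they are counted reads or rounded estimates from Salmon was not examined. Within either genotype, the SD of log2(reads + 1) stayed under 2 for every gene of the table, so genes with wider replicates are not in the table, and tests that use the spread between replicates can call too many genes.

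Genes with a mean of at least 10 normalised counts (4152) were tested on log2(value + 1) with limma 3.58.1 in R 4.3.3 (trend prior), Benjamini-Hochberg adjusted, two-sided, at 0.05, and the fold change understates low genes. Alternatives were other pseudocounts, filters, priors and scalings, left-out libraries, a replicate block, and voom, edgeR 4.0.16 and DESeq2 1.42.0 on recovered reads. The fit was tested on simulated data. There it called 9.64% of 4-fold, 68.5% of 16-fold and 96.8% of 64-fold changes in the right direction, and 0.0253% of unchanged genes. A gene that did not pass can therefore still differ between the groups. Positions and shared 31-base stretches come from GENCODE M21, and promoters from RefSeq. The members, and the lists, were chosen with earlier results of these data known. Named genes were all members, the called genes of each pathway list or else the 2 with the highest mean, and a fixed set of pathway genes.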

Additional observations from a re-analysis of the deposited data

How the results depend on the processing

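The 6 positive and 4 negative members kept their sign under 13 of 13 alternatives that use all libraries, every scaling included, and Ifit3b kept its call in each of them (adjusted p from 0.00572 to 0.0484). With single libraries left out, the number of members called higher ran from 0 to 2, the number called lower was 0, and Ifit1 ran from -0.048 to 1.79, its sign turning without 5xFAD 3. Over all genes, where 78 were higher and 186 lower, a minimum mean of 50 left 49 higher and 116 lower (fewer genes tested), DESeq2 gave 163 and 264 and quantile normalization 117 and 164. These counts ran from 56 to 84 and from 145 to 192 with single libraries left out; the cause was not tested for DESeq2 and quantile normalization. Of pathway genes, 1 higher and 0 lower became 3 and 1 with edgeR (Zbp1, Herc6 and Trim35 higher, Unc93b1 lower) and 4 and 3 with DESeq2 (also Ptpn11 higher, Pias2 and Sp100 lower); 1 was lower with voom (Sp100) and 1 without a filter (Rtp4). These were named after their values were seen, and the cause was not tested apart from Rtp4, which the filter leaves out. With single libraries left out they ran from 1 to 2 higher and from 0 to 1 lower. The replicate block gave 80 higher and 190 lower genes and 1 member, Ifit3b (adjusted p = 0.0296); the deviations of libraries that share a number had correlations of 0.00247, -0.0157 and -0.0126, and the library with the same number was the best match for 0 of 6. Equal totals moved the median of all genes from -0.02 to -0.14 and that of the members from 0.78 to 0.66. Depth limits Ifit3b, with 7 and 6 reads in WT 1 and WT 3, while every other member had at least 66 reads in each library.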
